A study of Mus musculus with 10 samples.

Results

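Conventional dendritic cells are the rare leukocytes that carry antigen out of a tumour and present it to T cells. Transcripts of 7 genes that mark these cells were followed in whole tumours: Zbtb46, Flt3, Batf3, Wdfy4, Ccr7, Fscn1 and Cd83. The genes were taken by symbol from the deposited table of raw counts, where all 7 were present among 18603 genes, and all 7 passed the filter on low counts that left 15883 genes for testing. The tumours were RENCA, a mouse kidney cancer cell line, grown under the skin of female Balb/c mice. One group of 5 mice received PBS, the vehicle, and the other group of 5 received SLR14, a triphosphate RNA that activates the cytosolic RNA sensor RIG-I, carried in lipid nanoparticles in 50 µL of PBS. Injections into the tumour began at 100 to 150 mm3, were given 3 times 48 h apart, and tumours were taken 24 h after the last. No group received empty nanoparticles, so the RNA and its lipid carrier cannot be told apart. Each group holds 5 tumours, 1 per mouse.

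The members mark different steps in the life of a conventional dendritic cell. Zbtb46 encodes a zinc finger repressor that separates these cells from monocytes and macrophages, and Flt3 is the receptor whose ligand drives their development from bone marrow precursors. Batf3 is the AP-1 family factor on which the type 1 subset (cDC1) depends, and Wdfy4 is needed by cDC1 for the cross-presentation of tumour antigens to CD8+ T cells. When a dendritic cell matures it switches on Ccr7, the chemokine receptor that guides it to the lymph node, Fscn1, which bundles actin in its dendrites, and Cd83, a surface protein that stabilizes MHC class II. None of the genes is restricted to dendritic cells. Zbtb46 is also made by endothelial cells, Flt3 by blood progenitors, Ccr7 by naive T cells and B cells, Cd83 by activated B cells and macrophages, and Fscn1 by endothelial and many cancer cells. In a bulk sample, fewer cells of a type and less RNA per cell cannot be told apart.

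Libraries held from 17931895 counts, in SLR14 2, to 39842608 counts, in SLR14 3. On the first principal component of all tested genes (28.3% of the variance), PBS 5 (58.6) and SLR14 2 (-40.8) stood apart from the other tumours (-15.7 to 28.1). PBS 5 had the highest summed level of 5 erythroid genes (160 CPM, the counts scaled by library size, against 15.9 to 89.0 in the other tumours), and SLR14 2 the lowest of 6 skeletal muscle genes (1.43 CPM against 45.0 to 361). Each member's fold change is therefore also given with both left out. Xcr1 and Clec9a, the surface receptors that define cDC1, were scarce in both groups. They had 2 to 28 and 0 to 12 counts per tumour and were not tested. The number of conventional dendritic cells in the tumours was not measured.

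Of the 7 genes, 1 fell after SLR14, 0 rose and 6 did not pass. The one that fell was Zbtb46, at 52.5% of its PBS mean. The call was made by edgeR's quasi-likelihood test with an adjusted p under 0.05 over all 15883 genes, which called 0.963% of genes in all, 0.674% as higher and 0.29% as lower. Cd83, Ccr7 and Flt3 had mean levels at 54.3%, 50.8% and 39.4% of PBS but more spread between tumours, and none of these passed. Batf3, Wdfy4 and Fscn1 lay nearer to their PBS means, at 98.6%, 120% and 81.0%. The log2 fold change was negative for 6 of 7 members, with a median of -0.90, where 52% of all tested genes were negative and the median was -0.01. At an unadjusted p under 0.05 there were 4 members, all of them lower, where 5.43% of all genes were lower at that level. The members were chosen with earlier results of these tumours known, so these counts are not independent evidence of direction. DESeq2 called 2 members lower, Zbtb46 and Cd83, where it called 0.839% of genes lower and 2.19% in either direction, and 0 members higher. Only Zbtb46 had groups that did not overlap, and 1.32% of tested genes had every SLR14 tumour below every PBS tumour, against 1.92% the other way.

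**Figure D1:**
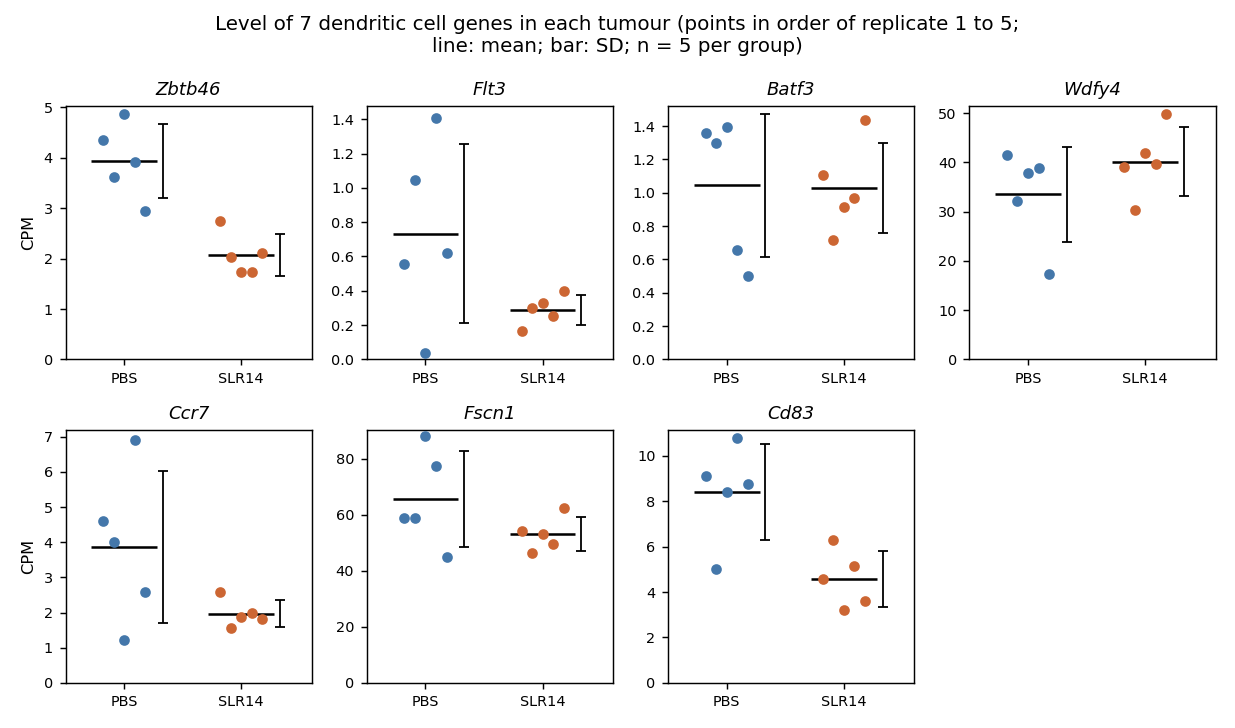
Level of each member in CPM (vertical axis from 0) in the 5 PBS and 5 SLR14 tumours, with points ordered by replicate number, the group mean as a line and the SD as a bar. Zbtb46 separates the groups, from 2.94 to 4.86 CPM under PBS and from 1.73 to 2.75 CPM after SLR14, while Flt3, Ccr7 and Cd83 overlap through 1 low PBS tumour each.

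Zbtb46 (ENSMUSG00000027583) lies on chromosome 2. A RefSeq window around 1 of its annotated transcript starts is shown here because Zbtb46 is the member that fell, and because the window holds a composite of an AP-1 and an interferon regulatory factor (IRF) site. Such composites are bound by BATF family factors together with IRF4 or IRF8. The Batf3 window is shown beside it for a member near its PBS mean. Windows run from 250 bases before to 50 bases after the start and were found for 5 of the 7 members (RefSeq, GRCm38.p6). They are printed 5′ to 3′ on the gene's strand, with motif matches in capitals.
Zbtb46, chr2:181424339-181424638, minus strand: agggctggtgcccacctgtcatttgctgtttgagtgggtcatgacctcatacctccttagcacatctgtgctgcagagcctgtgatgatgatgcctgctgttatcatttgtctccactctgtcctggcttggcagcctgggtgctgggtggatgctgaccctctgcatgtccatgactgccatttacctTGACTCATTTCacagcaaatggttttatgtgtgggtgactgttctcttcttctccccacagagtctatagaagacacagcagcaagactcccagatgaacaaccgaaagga
Batf3, chr1:191098164-191098463, plus strand: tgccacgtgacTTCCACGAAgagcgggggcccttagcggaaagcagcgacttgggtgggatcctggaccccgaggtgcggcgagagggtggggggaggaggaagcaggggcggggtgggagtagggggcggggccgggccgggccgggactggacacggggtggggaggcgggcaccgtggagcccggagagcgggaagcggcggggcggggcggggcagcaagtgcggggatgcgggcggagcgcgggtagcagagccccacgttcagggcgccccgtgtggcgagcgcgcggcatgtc
In the Zbtb46 window the capitals mark TGACTCATTTC, at 61 to 51 bases before the start, which on the other strand reads as the composite, GAAA followed directly by the AP-1 motif TGANTCA. The AP-1 match TGACTCA is thus part of it. The composite occurred in 0.125% of 32851 such windows and the AP-1 motif in 7.81%, both strands counted, and among the members both occurred in Zbtb46 alone. In the Batf3 window the capitals mark TTCCACGAA, a match to the gamma-activated site TTCNNNGAA, which 8.3% of windows held. The core of the interferon-stimulated response element, GAAA repeated after 2 bases of any kind, occurred in 3.44% of windows and in 0 of the 5 member windows. The composite was added to the search after the Zbtb46 window had been read, and a match of letters does not show binding. The Zbtb46 window belongs to 1 of 5 transcripts that GENCODE M21 lists for the gene, and the other starts lie 35.0 kb upstream. Sequence at those other starts was not searched. Whether transcription in these tumours begins at the start shown was not tested, so the window may not be the promoter in use.

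Zbtb46 was at 4.36, 3.62, 4.86, 3.92 and 2.94 CPM in PBS tumours 1 to 5 and at 2.75, 2.02, 1.73, 1.73 and 2.10 CPM in SLR14 tumours 1 to 5. The lowest PBS tumour, PBS 5, stayed above the highest SLR14 tumour, SLR14 1. The means were 3.94 ± 0.729 and 2.07 ± 0.417 CPM (SD, n = 5), a log2 fold change of -0.93 (SE 0.19, adjusted p = 0.0398 in edgeR). Only 1.52% of tested genes had a lower log2 fold change. Without PBS 5 and SLR14 2 it was -1.02 (SE 0.20, adjusted p = 0.0287 in edgeR). The call lay close to the threshold. Leaving out any single tumour but PBS 5 or SLR14 1 ended it (adjusted p 0.0679 to 0.130 in edgeR). The log2 fold change stayed between -1.06 and -0.84 with 1 tumour left out.

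Flt3 (ENSMUSG00000042817), the cytokine receptor, was the scarcest member, with 1 to 47 counts per tumour. Its counts were 16, 33, 1, 47 and 16 in PBS tumours 1 to 5 (0.558, 1.05, 0.0377, 1.41 and 0.620 CPM) and 4, 5, 13, 5 and 15 in SLR14 tumours 1 to 5 (0.164, 0.298, 0.330, 0.255 and 0.400 CPM). Of the PBS tumours 4 lay above every SLR14 tumour, and PBS 3, with its single count, lay below them all. The means were 0.734 ± 0.520 and 0.289 ± 0.0877 CPM (SD over 5 tumours). The fold change was -1.32 on the log2 scale (SE 0.56, adjusted p = 0.432 in edgeR). Without PBS 3 the log2 fold change was -1.61 (SE 0.38, adjusted p = 0.100 in edgeR), and without PBS 5 and SLR14 2 it was -1.38. It was smaller in limma, at -0.77 (SE 0.75) with voom and -0.76 (SE 0.66) on the deposited normalized values, and passed in none of these. At this depth Flt3 stood at the edge of the low-count filter and was not tested when PBS 1, 2 or 4 was left out.

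Batf3 (ENSMUSG00000026630), the cDC1 factor, showed no difference larger than the spread between tumours. It was at 1.359, 1.301, 1.395, 0.659 and 0.503 CPM in PBS tumours 1 to 5 and at 1.11, 0.714, 0.914, 0.968 and 1.44 CPM in SLR14 tumours 1 to 5. The PBS tumours fell into 3 high and 2 low values, and every SLR14 tumour but SLR14 5 lay between them. The log2 fold change was -0.0020 (SE 0.33, adjusted p = 0.999 in edgeR), and -0.08 (SE 0.30) without PBS 5 and SLR14 2. Wdfy4 (ENSMUSG00000051506), the cross-presentation factor, was the member with a positive value. Its PBS mean, 33.5 CPM, was far above those of Xcr1 (0.435 CPM) and Clec9a (0.224 CPM). Which cells made the Wdfy4 transcript was not tested, so its value is not a measure of cDC1. Wdfy4 was at 41.5, 32.1, 37.9, 38.9 and 17.4 CPM in PBS tumours 1 to 5 and at 39.0, 30.4, 41.8, 39.7 and 49.8 CPM in SLR14 tumours 1 to 5. PBS 5 was far below the other 9 tumours, which overlapped. The log2 fold change was 0.26 (SE 0.20, adjusted p = 0.644 in edgeR), 0.09 (SE 0.12) without PBS 5, 0.17 (SE 0.21) without SLR14 5 and 0.18 (SE 0.10) without both PBS 5 and SLR14 2.

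Of the 3 maturation genes, Cd83 came closest to the threshold. Cd83 (ENSMUSG00000015396) was at 9.13, 5.01, 8.41, 10.8 and 8.75 CPM in PBS tumours 1 to 5 and at 4.59, 6.31, 3.20, 5.15 and 3.60 CPM in SLR14 tumours 1 to 5. PBS 2 was the only PBS tumour within the SLR14 range. The means were 8.42 ± 2.11 and 4.57 ± 1.24 CPM (SD over 5 tumours). The fold change was -0.90 on the log2 scale (SE 0.22, adjusted p = 0.0942 in edgeR). Cd83 passed without PBS 2 (-1.04, SE 0.20, adjusted p = 0.0367 in edgeR) and in DESeq2 (-0.89, SE 0.23, DESeq2 adjusted p = 0.00871), and did not pass without PBS 5 and SLR14 2 (-1.03, SE 0.23, adjusted p = 0.0518 in edgeR).

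Ccr7 (ENSMUSG00000037944), the homing receptor, was at 4.60, 4.00, 1.21, 6.91 and 2.59 CPM in PBS tumours 1 to 5 and at 2.58, 1.55, 1.88, 1.99 and 1.81 CPM in SLR14 tumours 1 to 5. As with Flt3, PBS 3 was the lowest of all 10 tumours, PBS 4 was the highest, and the other 4 PBS tumours lay above every SLR14 tumour. The log2 fold change was -0.98 (SE 0.36, adjusted p = 0.324 in edgeR), and -1.20 (SE 0.27, adjusted p = 0.0772 in edgeR) without PBS 3. Without PBS 4, the highest tumour, it was -0.66 (SE 0.33, adjusted p = 0.419 in edgeR), and without PBS 5 and SLR14 2 it was -1.03 (SE 0.39). The coefficient of variation was 55.7% in PBS and 19.6% in SLR14 tumours. Fscn1 (ENSMUSG00000029581), the actin bundler, was at 58.8, 58.9, 88.2, 77.3 and 44.9 CPM in PBS tumours 1 to 5 and at 54.1, 46.4, 53.2, 49.5 and 62.4 CPM in SLR14 tumours 1 to 5. The groups overlapped, PBS 5 being the lowest tumour and PBS 3 the highest, and the log2 fold change was -0.30 (SE 0.16, adjusted p = 0.516 in edgeR). It was -0.17 (SE 0.15) without PBS 3, -0.42 without PBS 5 and -0.37 (SE 0.13, adjusted p = 0.260 in edgeR) without PBS 5 and SLR14 2. The SD was smaller in SLR14 than in PBS tumours for all 7 members, and so it was for 72.4% of tested genes.

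Levels differed widely between members once scaled by length (CPM per kb of merged exon in GENCODE M21, since the annotation behind the counts is not given in the sources used here). In PBS tumours Fscn1 led at 21.8 ± 5.67 CPM per kb, with no overlap with any other member. Cd83 (3.27 ± 0.819), Wdfy4 (3.18 ± 0.917) and Ccr7 (1.95 ± 1.09) followed, and neighbours in this order overlapped. Batf3 (0.653 ± 0.267) and Zbtb46 (0.463 ± 0.0857) overlapped too, and Flt3 (0.119 ± 0.0841) was below both. In SLR14 tumours Wdfy4 (3.80 ± 0.658 CPM per kb) stood above Cd83 (1.78 ± 0.484) with no overlap, and Batf3 (0.644 ± 0.169) above Zbtb46 (0.243 ± 0.0490). The ranges of Cd83, Ccr7 (0.992 ± 0.194) and Batf3 overlapped from each to the next (SD, n = 5 throughout).

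**Figure D2:**
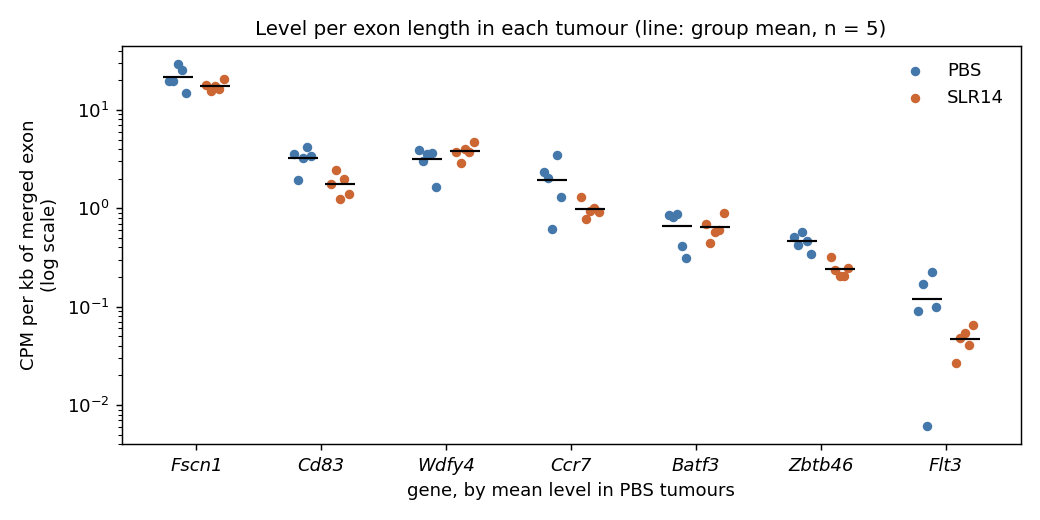
CPM per kb of merged exon (vertical axis, log scale) for each member in each PBS and SLR14 tumour, ordered by the PBS mean, with the group mean as a line. Fscn1 sits near 21.8 in PBS and Flt3 at 0.119, and the lone low PBS point of Flt3 is PBS 3.

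Because the members are shared with other cell types, the level of those cells' markers was set beside them. Among 8 endothelial genes edgeR called 0, with 0 at an unadjusted p under 0.05 too, and they summed to 127 to 242 CPM in PBS tumours and 150 to 214 CPM after SLR14. Among 9 macrophage genes 0 passed (1 at an unadjusted p under 0.05), with sums of 1807 to 2274 and 1801 to 2237 CPM. Of 5 leukocyte genes, which include Ptprc (CD45), 0 passed (2 at an unadjusted p under 0.05), and their sums were 279 to 337 and 327 to 393 CPM. Of 4 tested B cell genes 0 passed (0 at an unadjusted p under 0.05, median log2 fold change -0.45, all 4 negative). The B cell sums, 21.2 to 44.0 and 28.3 to 33.7 CPM, were mostly Pax5 (26.5 ± 7.48 and 23.2 ± 2.78 CPM). Cd79a was at 1.41 and 1.09 CPM, so the sums say little about the number of B cells. Of 4 tested T cell genes 0 passed in edgeR (2 at an unadjusted p under 0.05, median 1.07), while DESeq2 called 2 higher, Cd3e and Cd8a. These were named after their values were seen: Cd3e, a chain of the T cell receptor complex, was at 2.57 (SE 0.62, adjusted p = 0.0791 in edgeR), with every SLR14 tumour above every PBS tumour (1.92% of tested genes), and Cd8a, the marker of CD8+ T cells, at 2.15 (SE 0.55, adjusted p = 0.111 in edgeR). The T cell sums, 6.89 to 18.9 and 6.83 to 15.7 CPM, were mostly Cd4 (9.56 ± 3.74 and 6.41 ± 2.33 CPM), which macrophages can also make. Of 3 tested progenitor genes 0 passed (0 at an unadjusted p under 0.05, median -0.46, all 3 negative). The progenitor sums, 18.4 to 40.3 and 15.6 to 28.03 CPM, were mostly Cd34 (25.5 ± 8.23 and 18.4 ± 4.44 CPM). Fibroblast genes, with 0 of 6 passing and 3 at an unadjusted p under 0.05, were negative in all 6 (median -0.86; sums 810 to 3313 and 436 to 1505 CPM). Of 5 tested plasmacytoid dendritic cell genes Bst2 alone rose, an interferon-induced gene made by many cells, while Siglech, the defining gene, was too low to test. Of 5 tested monocyte and neutrophil genes 2 rose, S100a8 and S100a9, and of 7 epithelial and renal genes 1 fell, Epcam, which some dendritic cells also make and which did not pass without PBS 5 and SLR14 2. DESeq2 called 0 of the endothelial, macrophage, leukocyte, B cell, progenitor and fibroblast genes. The part of these cells in the member values was not tested.

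Zbtb46 was also lower when each tumour was scaled to its own marker sums, a reuse of the same Zbtb46 values and not separate evidence. Against the summed endothelial genes its log2 ratio averaged -5.42 ± 0.294 under PBS and -6.36 ± 0.309 after SLR14 (SD, n = 5), with no overlap (0.667% of tested genes lay wholly lower on this ratio). To the macrophage sum it was -8.99 ± 0.246 and -9.84 ± 0.305, again with no overlap (0.548% of tested genes). To the leukocyte sum it was -6.28 ± 0.241 and -7.41 ± 0.212, with no overlap, on a scale where 6.42% of tested genes lay wholly lower. Fscn1 separated the groups relative to the endothelial sum, at -1.41 ± 0.107 in PBS and -1.71 ± 0.0934 in SLR14 tumours, and overlapped relative to the leukocyte and macrophage sums. The other 5 members overlapped on all 3 ratios. Cd83 differed by -0.90, -0.82 and -1.09 (log2) relative to endothelial, macrophage and leukocyte genes, and PBS 2 was the lowest PBS tumour on each ratio.

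**Figure D3:**
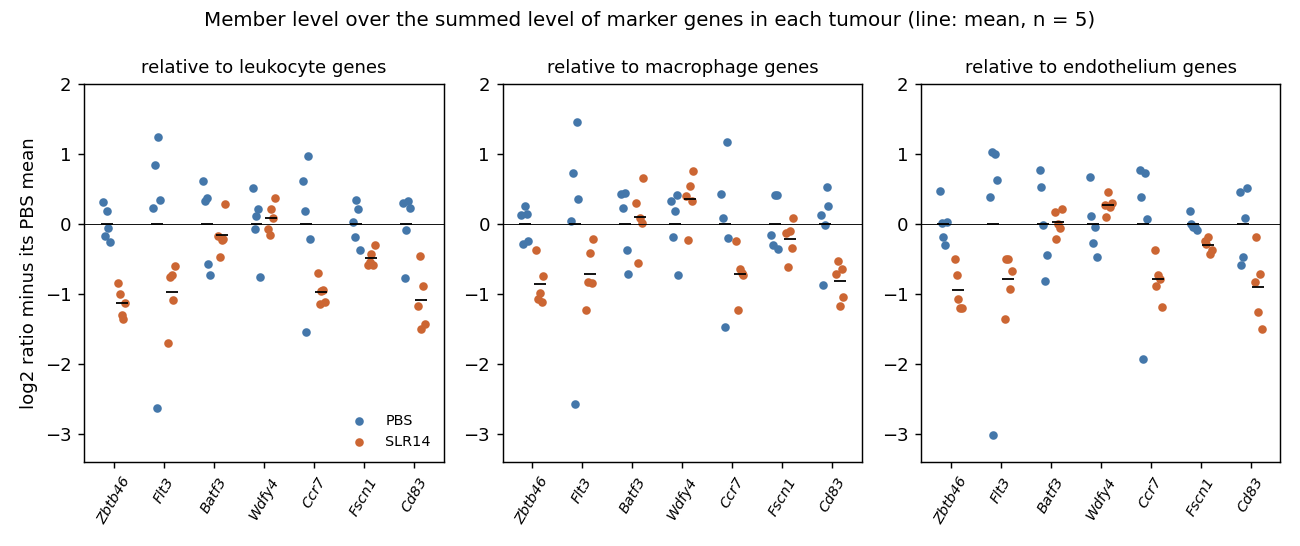
Log2 ratio of each member to the summed CPM of leukocyte, macrophage or endothelial marker genes in the same tumour, minus the PBS mean of that ratio (vertical axis), with points for the 5 PBS and 5 SLR14 tumours and lines for the means. Zbtb46 separates the groups in all 3 panels, by -1.13, -0.86 and -0.94 on average, and the lowest PBS point of Flt3 and of Ccr7 is PBS 3.

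The variation of the members from tumour to tumour was compared by pairs. With 10 tumours and 1 to 47 counts for Flt3, a lack of correlation does not show that members vary apart. Among 21 pairs of members, compared over 10 tumours as deviations of log2 CPM from the group mean, 10 had a positive Pearson r. With an exact permutation within groups (14400 arrangements), 2 pairs had an unadjusted p under 0.05 and 0 after Benjamini-Hochberg adjustment over the 21. Wdfy4 with Fscn1 had Pearson r 0.786 (exact permutation p = 0.0157, adjusted 0.258) and Spearman rho 0.539 (exact permutation p = 0.160, adjusted 0.723), and r was 0.456 without PBS 5 and SLR14 2. Batf3 with Wdfy4 had r 0.743 (exact permutation p = 0.0246, adjusted 0.258) and rho 0.564 (exact permutation p = 0.136, adjusted 0.723), and r was 0.848 without PBS 4 and PBS 5. Flt3 with Ccr7 had the highest r, 0.806 (exact permutation p = 0.0696, adjusted 0.365; rho 0.273, exact permutation p = 0.530, adjusted 0.895), which rested on PBS 3 and PBS 4, since r was -0.181 without them. Zbtb46 with Flt3 gave r -0.509 (exact permutation p = 0.178, adjusted 0.520) and rho -0.442 (exact permutation p = 0.220, adjusted 0.723), and r was -0.577 without PBS 5 and SLR14 1. In each pair the tumours left out were the 2 farthest from the median deviation of the gene named first. For Zbtb46 with Flt3 this kept PBS 3, where Flt3 had 1 count and Zbtb46 was at its highest.

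The genes whose deviations were most like each member's were picked from all tested genes with a mean of at least 1 CPM, so their r values are the highest of many and carry no p. For Zbtb46 they were Zscan22, Tmem44 and Usp40 (r 0.873, 0.871 and 0.863 over 10 tumours), and for Flt3 Tnip3, Atp6v1b2 and Tcam1 (0.958, 0.929 and 0.916). For Batf3 they were Tango6, Kif23 and Adcy7 (0.951, 0.940 and 0.932), and for Wdfy4 Cc2d2a, Vangl2 and Slc29a3 (0.975, 0.974 and 0.971). For Ccr7 they were Gpr35, Trp53inp1 and C1qtnf9 (0.964, 0.950 and 0.931), for Fscn1 Usp20, Eng and Dgkz (0.972, 0.970 and 0.969), and for Cd83 Gadd45g, Mcoln1 and Zfp787 (0.879, 0.859 and 0.858). No member appeared on another member's list, but the lists are short and Flt3, with a mean under 1 CPM, could not enter them. None of these 21 genes passed the test of SLR14 against PBS, where 0.963% of all tested genes did.

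Companion genes of the same cells were examined by list. Among 7 tested cDC1 companions edgeR called 0 (1 at an unadjusted p under 0.05) and DESeq2 called 0. Of these 7, 5 were positive and the median log2 fold change was 0.06. Their PBS means ran from 2.27 CPM (Itgae) to 95.8 CPM (Naaa, named after its values were seen), and which cells made them was not tested. Xcr1 and Clec9a, too low to test, averaged 0.435 and 0.224 CPM under PBS and 0.307 and 0.0863 CPM after SLR14. The groups overlapped for both. Irf8, the factor that sustains cDC1 together with Batf3 and is also made by macrophages and B cells, was at 53.1 ± 8.61 and 55.5 ± 4.56 CPM (SD over 5 tumours). The fold change was 0.06 on the log2 scale (SE 0.12, adjusted p = 0.837 in edgeR), named after its values were seen. The smallest p values belonged to Cadm1, an adhesion molecule with every SLR14 tumour above every PBS tumour (0.42, SE 0.14, adjusted p = 0.270 in edgeR), Id2, an inhibitor of DNA-binding factors (-0.22, SE 0.13, adjusted p = 0.562 in edgeR), and Itgae, the integrin CD103 (-0.70, SE 0.41, adjusted p = 0.564 in edgeR). As with Cadm1, 1.92% of tested genes lay wholly higher in SLR14 tumours. For Itgae PBS 4 was again the highest tumour, at 4.70 CPM against 0.761 to 2.67 CPM in the other 9, and the log2 fold change was -0.24 without PBS 4 and -1.07 without SLR14 1.

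Type 2 (cDC2) companions held 3 of the 4 edgeR calls among the companion lists. Of 9 tested, 3 fell, 0 rose and 6 did not pass, and the median log2 fold change was -0.03. Irf4, the factor of cDC2 development and migration, fell from a mean of 3.90 ± 1.38 CPM to 1.46 ± 0.501 CPM (-1.43 in log2, SE 0.29, adjusted p = 0.0330 in edgeR), and its lowest PBS tumour (2.25 CPM) lay just above its highest SLR14 tumour (2.14 CPM). Leaving out any single tumour but PBS 5 or SLR14 2 ended the call (adjusted p 0.0602 to 0.109 in edgeR). Mgl2, the lectin CD301b, fell from 49.9 ± 10.9 CPM in PBS tumours to 18.6 ± 4.69 CPM (-1.43, SE 0.19, adjusted p = 0.00254 in edgeR), and Cd209a, the lectin of DC-SIGN type, from 2.79 ± 0.783 to 0.135 ± 0.0793 CPM (-4.36, SE 0.36, adjusted p = 0.000129 in edgeR), where SLR14 tumours held 1 to 6 counts. Both lectins are also made by monocyte-derived cells and macrophages. Of the other 6, named after their values were seen, Sirpa, Klf4, Notch2, Zeb2 and Esam had log2 fold changes of -0.03 to 0.42, and Clec10a, a lectin of the family of Mgl2, was at -1.07 (SE 0.31, adjusted p = 0.173 in edgeR). DESeq2 called 4 lower, the same 3 and Clec10a.

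Of 18 tested maturation companions 1 fell in edgeR, 0 rose and 17 did not pass, with a median log2 fold change of -0.19 and 14 negative. DESeq2 called 3 lower, Ccl17, Ccl22 and Cd86. The edgeR call was Ccl17, a chemokine of the Ccr4 receptor (-3.26, SE 0.42, adjusted p = 0.00237 in edgeR). Ccl22, its partner ligand, was at 8.92, 9.30, 2.49, 17.8 and 4.22 CPM in PBS tumours 1 to 5 and at 3.16, 2.44, 1.14, 1.94 and 2.77 CPM in SLR14 tumours 1 to 5. Like Flt3 and Ccr7, Ccl22 was lowest among PBS tumours in PBS 3 and highest in PBS 4, and it did not pass (-1.91, SE 0.45, adjusted p = 0.0736 in edgeR). It passed without PBS 3 (adjusted p = 0.0272 in edgeR) and without PBS 5 (adjusted p = 0.0392 in edgeR), and was at -1.45 (adjusted p = 0.133 in edgeR) without PBS 4. Cd86, a costimulatory ligand of CD28, ranged from 8.65 to 12.7 CPM under PBS and from 5.10 to 8.93 CPM after SLR14 (-0.61, SE 0.16, adjusted p = 0.122 in edgeR), and passed without SLR14 2 (adjusted p = 0.0480 in edgeR). These lists were drawn up with earlier results of the same tumours known, Ccl17 and Cd209a among them, so their counts describe these tumours and are not independent evidence of direction.

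**Figure D4:**
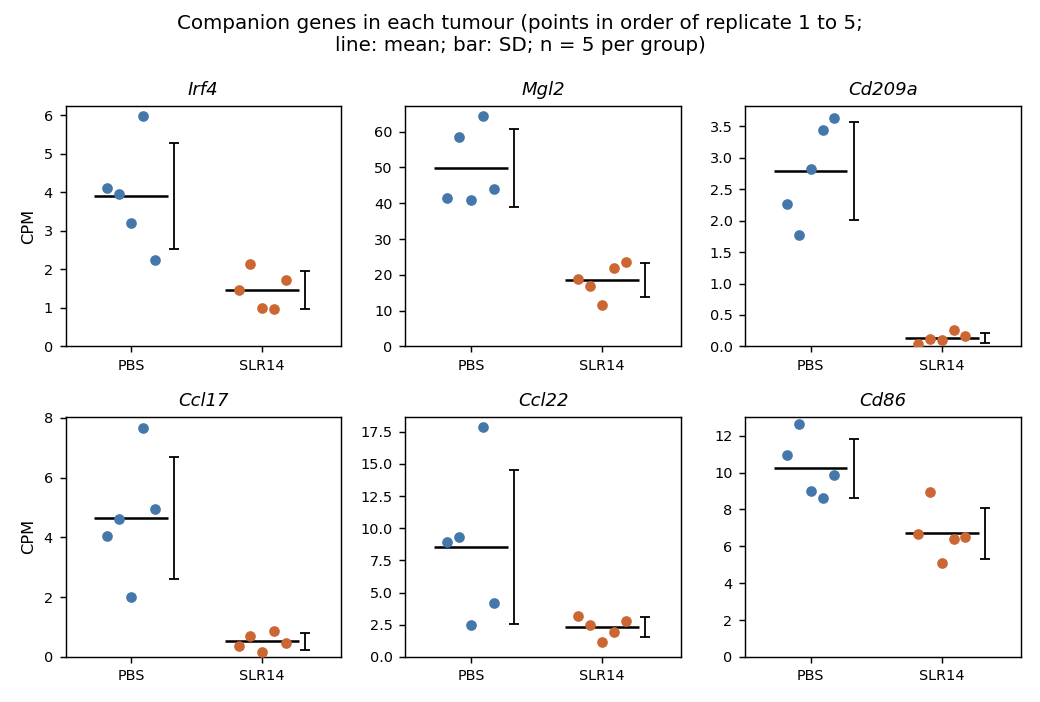
Level in CPM (vertical axis from 0) of 6 companion genes in each tumour, with points in order of replicate number, the group mean as a line and the SD as a bar. Irf4, Mgl2, Cd209a and Ccl17 do not overlap between PBS and SLR14 tumours, where 1.32% of tested genes lay wholly lower, and Ccl22 and Cd86 overlap.

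Itgax (CD11c) and the class II genes gave 0 edgeR calls among 10 tested (2 at an unadjusted p under 0.05) and 1 in DESeq2, H2-DMb2 (adjusted p = 0.0139), with 10 negative values and a median log2 fold change of -0.70. H2-DMb2, a chaperone of peptide loading, was at 7.63 to 12.6 CPM in PBS tumours and 5.13 to 7.59 CPM after SLR14 (-0.68, SE 0.17, adjusted p = 0.102 in edgeR), and every SLR14 tumour lay below every PBS tumour (1.32% of tested genes). Itgax was at 27.7 ± 12.8 and 16.8 ± 4.91 CPM (-0.72, SE 0.28, adjusted p = 0.370 in edgeR), highest in PBS 4 (48.0 CPM), without which the log2 fold change was -0.43. H2-Eb1, a chain of the class II molecule, was at 120 ± 44.7 and 56.8 ± 52.6 CPM (-1.07, SE 0.53, adjusted p = 0.487 in edgeR). SLR14 5, at 137 CPM, lay above 4 of the 5 PBS tumours, and without it the log2 fold change was -1.70 (SE 0.47, adjusted p = 0.184 in edgeR).

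Of 5 tested genes on the list of ligands and growth factor axes, edgeR called 0, with 0 at an unadjusted p under 0.05, and DESeq2 called 0. Flt3l, the ligand of Flt3, ranged from 1.06 to 1.35 CPM in PBS tumours and from 0.787 to 1.25 CPM after SLR14 (log2 fold change -0.22, SE 0.22, adjusted p = 0.719 in edgeR). Csf2ra, a chain of the GM-CSF receptor, was at 35.7 ± 6.15 and 37.9 ± 3.55 CPM (0.09, SE 0.12, adjusted p = 0.794 in edgeR), with 0.02 to 0.19 when 1 tumour was left out. Ackr3, a scavenging chemokine receptor, was at 2.95 ± 0.930 and 2.55 ± 0.827 CPM (-0.22, SE 0.28, adjusted p = 0.771 in edgeR), and ranged from -0.37 to -0.08 on the log2 scale with 1 tumour left out. Xcl1, the ligand of Xcr1, had 0 to 8 counts in PBS and 1 to 19 counts in SLR14 tumours and was not tested. Ccl19 and Ccl21a, the ligands of Ccr7, were not analysed here.

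**Figure D5:**
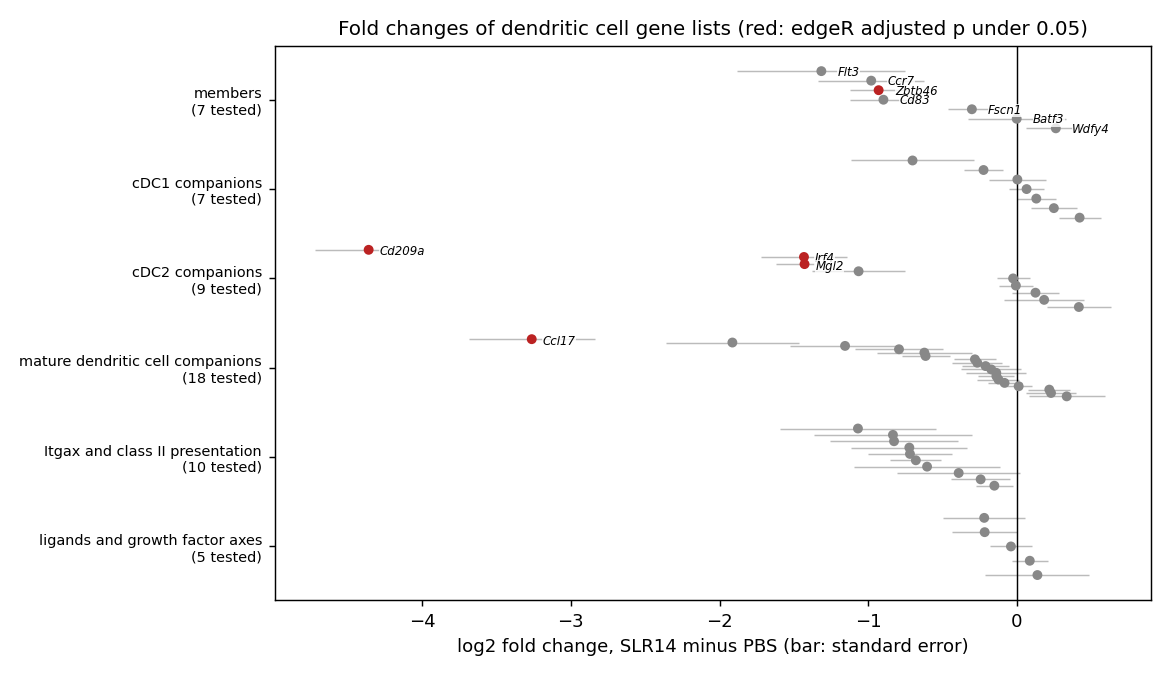
Log2 fold change of SLR14 minus PBS (horizontal axis, bar: standard error) for every tested gene of the members and of 5 companion lists, with genes past an edgeR adjusted p of 0.05 in red. Zbtb46 (-0.93) is the member past the threshold, and Cd209a (-4.36), Irf4 (-1.43), Mgl2 (-1.43) and Ccl17 (-3.26) are the companions.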

How the data were processed

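Total RNA from 10 RENCA tumours was depleted of ribosomal RNA, enriched with oligo(dT) beads and sequenced, per the labels' protocols. Trim Galore 0.6.7, STAR, DESeq2 1.36.0 and mm39 are named in the submitters' processing notes, and how reads were counted, on which strand and with which gene models is not given in the sources used here. The authors deposited raw counts per gene and a normalized signal, which the values show to be the counts divided by 1 factor per tumour. Rows with no symbol (74) held 0.0295% of counts and were kept, since each has an identifier.

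Counts were filtered with filterByExpr (minimum count 10), scaled by TMM and tested with edgeR 4.0.16's quasi-likelihood test in R 4.3.3, with Benjamini-Hochberg adjustment over 15883 genes at 0.05, after a check on simulated counts. SE is the absolute log2 fold change over the square root of F, and CPM uses TMM-scaled library sizes. DESeq2 1.42.0, limma 3.58.1 (voom, and a trend fit on log2 of the deposited signal with a pseudocount of 1), other factors and filters, a replicate block and omitted tumours were alternatives. Log2 CPM for deviations and ratios used a prior count of 2.

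Members, lists and tests were chosen with earlier results of these data known. Named genes are the members, the ligands Flt3l, Ccl19, Ccl21a and Xcl1, and per companion list each gene past the threshold and up to 3 with the smallest p. Tumours are separate mice, and no library was a copy of another (within groups, chi-square over degrees of freedom was 7.66 to 134 between pairs).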

Additional observations from a re-analysis of the deposited data

Results flagged for a closer look

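In 44 groups of 5 tumours looked at for the members and the other tested named genes, 2 held a tumour far from the other 4, about what chance gives at 1 in 20. H2-Eb1 was at 198.9 CPM in PBS 4, where the other PBS tumours were at 93.8 to 108 CPM. Csf2ra was at 31.61 CPM in SLR14 2, where the other SLR14 tumours were at 38.4 to 39.9 CPM. No group of a member was marked in this way.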

How the results depend on the processing

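The count of members lower in SLR14 (1) was 2 in DESeq2 and 0 with the replicate block, and ranged from 0 to 1 with 1 tumour left out. Without PBS 2 the 1 call was Cd83 and not Zbtb46. No member was higher in any of the 19 alternatives. The count over all genes (153) was 407 in DESeq2 and 78 with the replicate block, and 69 to 194 with 1 tumour left out. Zbtb46 was negative in all 19 alternatives (-1.06 to -0.84) and lost its call in 9, among them the replicate block (adjusted p = 0.137 in edgeR), where Irf4 lost its call too (0.123). The titles number tumours 1 to 5 in both groups, but same-numbered tumours did not deviate together (r -0.201 to 0.107), and 1 of 5 PBS tumours correlated best with its own number, so the number was not taken as a pairing. The sign of Batf3 turned to 3.12e-05 with DESeq2 size factors, 0.00347 in DESeq2, 0.101 in limma voom, 0.0618 on the deposited normalized values and 0.0364 with the replicate block, and ranged from -0.17 to 0.12 with 1 tumour left out. Cd83 gained its call in 2 of 19. Flt3, with 1 to 47 counts, could be tested in 15 of 19. The causes were not tested.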
